A study of Mus musculus with 3 samples.

Results

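The genes followed here were 8 cytotoxic effector genes, chosen by name from the 32285 genes listed in the count tables. They were the granzymes Gzma, Gzmb, Gzmk and Gzmm, the pore former Prf1, the granule protein Nkg7, the death ligand Fasl and the cytokine Ifng. All 8 were found by symbol. Their levels were read in NK cells, in T cells and, as background, in B cells of the mouse spleen.

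NK cells and CD8 T cells kill target cells by releasing granules at the point of contact. Perforin, the product of Prf1, opens the target membrane, and granzymes, which are serine proteases, then enter and start cell death. Nkg7 is a membrane protein of these granules and takes part in their release. Fas ligand kills without granules by binding Fas, and interferon gamma acts on macrophages and other cells.

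Splenocytes were measured by droplet single-cell RNA sequencing from the 5′ end, a method that counts molecules by unique molecular identifiers (UMIs). There were 3 libraries, and each pooled 2 conditions of 3 mice. The mice were 12 to 14 weeks old. CD3 microbeads had been used to remove T cells. The C57BL/6 control library held male sham mice, given pumps without drug for 2 weeks, together with C57BL/6 females. C57BL/6 mice with pumps giving angiotensin II for 2 weeks from 10 weeks of age, at a dose labelled 490 ug/kg/min (the unit is as labelled and is uncertain), with or without 2-HOBA (2-hydroxybenzylamine, a scavenger of isolevuglandins), made up the C57BL/6 Ang II library. The series describes these mice as male. The B6.SLE123 library held mice of this lupus-prone congenic strain, given placebo or 2-HOBA for 6 weeks from 7 weeks of age. The study's methods describe them as female.

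The cells carried 6 hashtags per library, C0301 to C0306, which are antibodies with a sequence tag. No label ties a hashtag to a condition or a mouse, so the 2-HOBA groups were not compared and hashtag populations are given as a spread of values within a library. No test was run, since each group was 1 library. Intervals are exact 95% intervals, they cover counting error only, and they say nothing of differences between mice. After filters and removal of barcodes with several hashtags, 15700, 14017 and 16702 cells were kept from control, Ang II and B6.SLE123 mice in turn, with medians of 1759, 2724 and 1888 UMIs. Between 304 and 349 barcodes were shared by any 2 libraries, and at most 1 of them was an NK cell in both.

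Xist, the RNA of the inactive X chromosome, set the libraries apart. It was found in 46.6% to 54.9% of kept cells in each B6.SLE123 hashtag population and in 0% in each Ang II population. In the control library it was found in 51.7%, 49.2% and 50.8% of cells of C0304, C0305 and C0306, and in 0.348%, 0.165% and 0.386% of cells of C0301, C0302 and C0303. Each comparison was therefore also made with only those control hashtags that matched the other library in Xist. This choice was made after the data were seen. The hashtags were assigned to no condition by it. In the control library the mice labelled as sham were the males, so a split by sex there would also be one by pump.

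NK cells were taken as cells with at least 2 UMIs summed over Ncr1, Klrb1c and Klre1 and no Cd3e UMI. There were 581 from control, 412 from Ang II and 622 from B6.SLE123 mice, which is 3.70%, 2.94% and 3.72% of kept cells. Their median depth was 1775, 2473 and 1391 UMIs. All 10 NK genes that the gate did not use, among them Klrd1, Klrk1 and Eomes, were found in each library, at a summed level of 12585, 12103 and 9422 CPM (UMIs of a gene scaled to a common total). T cells had at least 1 Cd3e UMI, and there were 19, 331 and 18. B cells numbered 13225, 11483 and 13165. At the edge of the NK gate, control cells with a sum of 1 had 3192 CPM of Gzma and those with a sum of 2 had 11074 CPM. The same values were 447 and 4591 CPM in Ang II and 1957 and 10489 CPM in B6.SLE123.

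Each member was higher in NK cells than in B cells of the same library. The B cell gate left out any cell with a UMI of Ncr1, Klrb1c, Klre1 or Cd3e, so the folds below exclude B cells carrying NK gate RNA. Gzma was 15304 CPM in control NK cells (15085 to 15526) and 5.64 CPM in control B cells, which is 2712-fold. Nkg7 was 4902 CPM in NK cells and 2.07 CPM in B cells, which is 2366-fold. Prf1 was 390.6-fold and Gzmm 29.5-fold higher in control NK cells, and for Gzmb, Gzmk, Fasl and Ifng at most 3 UMIs were found in control B cells. B cells of the control library had a median of 1777 UMIs, about the depth of its NK cells.

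The B cell UMIs did not hold the members in the proportions of NK cells. For every 100 Gzma UMIs, NK cells had 4.74, 6.46 and 5.90 Prf1 UMIs in control, Ang II and B6.SLE123 mice, and B cells had 32.9, 51.7 and 66.0. Gzmm showed the same direction, with 0.124, 0.259 and 0.115 UMIs per 100 of Gzma in NK cells and 11.4, 9.09 and 12.7 in B cells. Nkg7 was close in both classes, at 32.0 and 36.7 in the control library. Of 13225 control B cells, 50 had a Prf1 UMI and none had more than 2, so the level came from many cells with few UMIs.

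**Figure D1:**
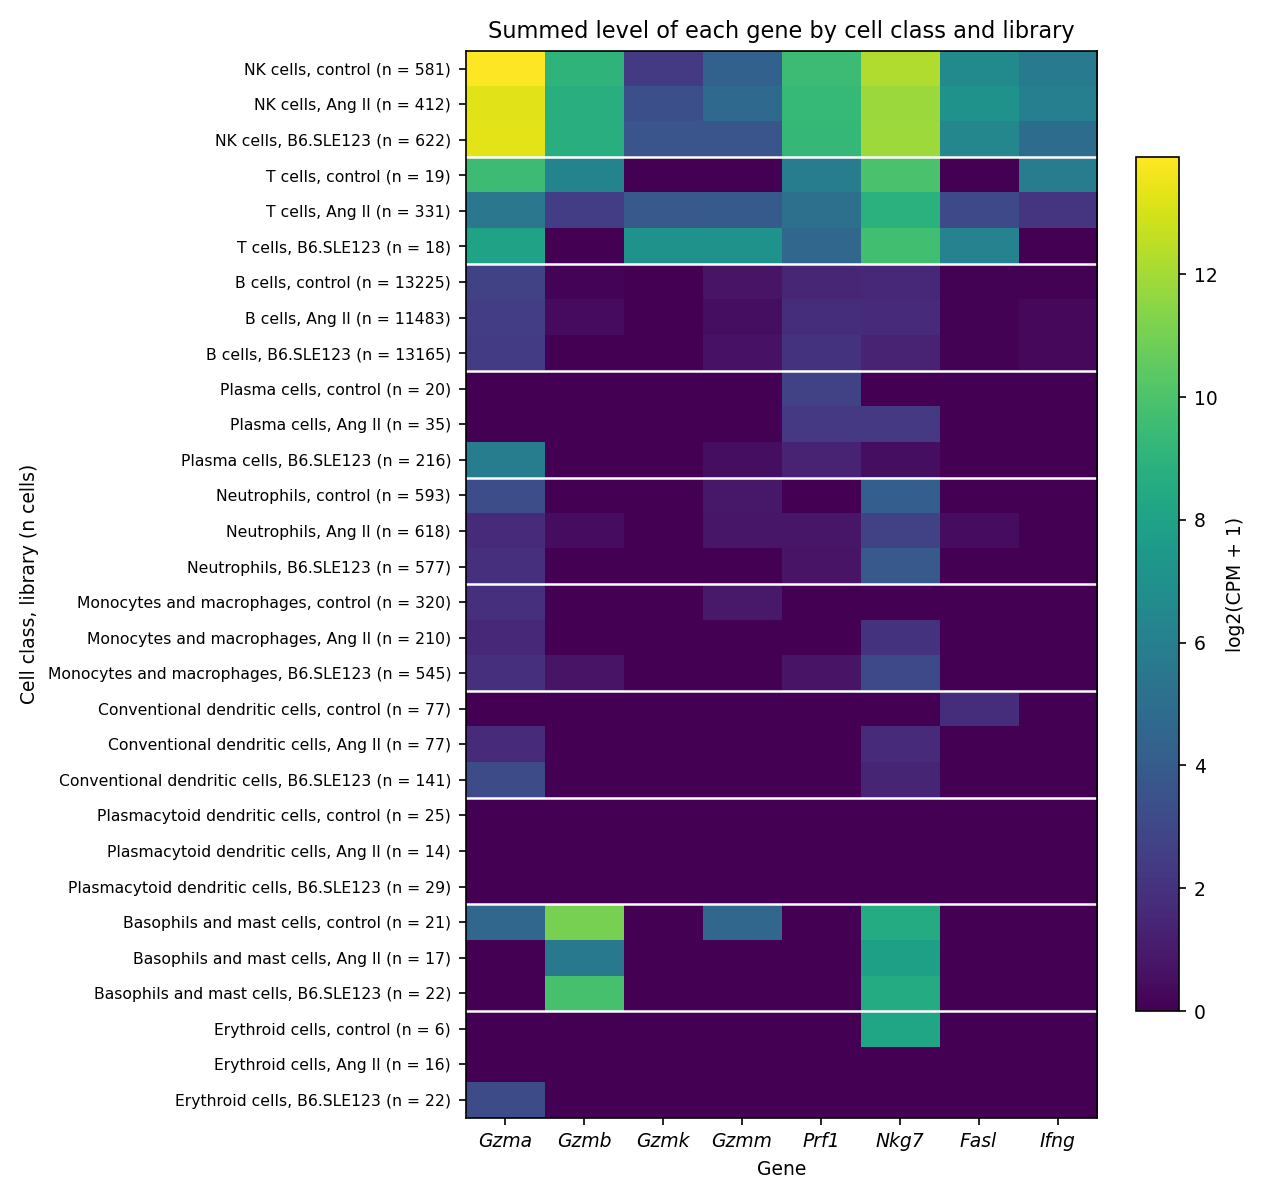
Level of each gene as log2(CPM + 1) of summed counts, with genes in columns and 10 cell classes of the 3 libraries in rows (n is the number of cells). The brightest rows are NK cells, where Gzma reached 15304 CPM, and outside NK and T cells the values to see are Gzma in B6.SLE123 plasma cells (58.3 CPM) and Gzmb and Nkg7 in basophils and mast cells.

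The promoters of the 4 members with the most UMIs in NK cells are shown so that the letters upstream of these genes can be read. They are RefSeq promoter windows of the build GRCm38.p6, from 250 bases before to 50 bases after the start. Gzma is chr13:113100932-113101231 on the minus strand, Gzmb is chr14:56262285-56262584 on the minus strand, Prf1 is chr10:61297586-61297885 on the plus strand, and Nkg7 is chr7:43436888-43437187 on the plus strand. Each is printed 5′ to 3′ along its gene. Capitals mark matches on either strand to T-box TCACAC, Runx TGTGGT, ETS GGAAGT, AP-1 TGANTCA or STAT TTCNNNGAA.
Gzma: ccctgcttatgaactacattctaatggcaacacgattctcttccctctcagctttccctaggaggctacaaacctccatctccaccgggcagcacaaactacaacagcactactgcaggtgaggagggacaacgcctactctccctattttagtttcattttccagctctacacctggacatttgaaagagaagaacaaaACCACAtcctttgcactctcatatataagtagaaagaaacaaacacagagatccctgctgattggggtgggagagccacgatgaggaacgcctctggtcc
Gzmb: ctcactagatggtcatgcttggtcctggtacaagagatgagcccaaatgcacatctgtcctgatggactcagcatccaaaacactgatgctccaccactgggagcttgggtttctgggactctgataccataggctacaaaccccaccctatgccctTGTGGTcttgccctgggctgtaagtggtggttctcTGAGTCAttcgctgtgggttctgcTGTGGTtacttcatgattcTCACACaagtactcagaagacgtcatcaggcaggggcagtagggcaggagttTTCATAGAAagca
Prf1: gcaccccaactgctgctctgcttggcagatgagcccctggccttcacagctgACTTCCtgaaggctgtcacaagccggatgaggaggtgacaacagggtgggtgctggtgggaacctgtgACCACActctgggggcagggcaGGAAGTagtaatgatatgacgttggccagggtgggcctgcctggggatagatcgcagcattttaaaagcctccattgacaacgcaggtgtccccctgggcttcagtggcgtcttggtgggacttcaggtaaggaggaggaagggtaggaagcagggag
Nkg7: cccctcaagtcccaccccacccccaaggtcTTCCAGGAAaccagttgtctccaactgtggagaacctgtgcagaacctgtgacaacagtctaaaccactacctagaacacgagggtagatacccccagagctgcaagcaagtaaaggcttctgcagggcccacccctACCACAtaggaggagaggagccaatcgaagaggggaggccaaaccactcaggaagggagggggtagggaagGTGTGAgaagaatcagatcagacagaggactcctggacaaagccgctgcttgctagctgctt

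T-box and Runx proteins are known regulators of cytotoxic genes in NK cells. Gzma held 1 Runx match, from -50 to -45, where -1 is the base just before the start. Gzmb held a T-box match from -15 to -10, Runx matches from -93 to -88 and from -34 to -29, an AP-1 match from -58 to -52 and a STAT match from 37 to 45. Over the 9 windows of the 8 genes, 5 held a Runx match, 4 a T-box match, 4 a STAT match, 3 an ETS match and 1 an AP-1 match. Of all 32851 promoter windows of the same length, 16.8% held the Runx letters, 14.5% the T-box letters, 23.8% the ETS letters, 7.81% the AP-1 letters and 8.30% the STAT letters. A match is a description of letters, not of binding.

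Gzma, a tryptase-type granzyme, lies at chr13:113093825-113100981 on the minus strand (GENCODE vM21, GRCm38). In control NK cells its level over the 6 hashtag populations was lowest at 13084, median 14662 and highest at 18095 CPM. In Ang II NK cells it was lowest at 9011, median 10335 and highest at 11360 CPM. In B6.SLE123 NK cells it was lowest at 7514, median 9913 and highest at 12770 CPM. Every control population lay above every population of the other libraries. Shares of cells were read after thinning each cell to 1000 UMIs, which dropped NK cells with fewer UMIs, 39 from control, 20 from Ang II and 131 from B6.SLE123, and kept 542, 392 and 491. Gzma was then found in 94.1% of control NK cells (91.8% to 95.9%), 89.8% of Ang II NK cells and 91.9% of B6.SLE123 NK cells, so most cells of each library held it. Unthinned shares were 94.5%, 91.7% and 94.4%, and in thinned B cells, with median depths of 1777, 2751 and 1938 UMIs before thinning, the share was 0.549%, 0.493% and 0.503%. No other member was found in more than 0.238% of thinned B cells in any library.

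Gzmb, the granzyme that cleaves caspases, was 522, 438 and 422 CPM in control, Ang II and B6.SLE123 NK cells. Over hashtag populations it ran from 324 to 812 CPM in control, from 329 to 568 CPM in Ang II and from 277 to 570 CPM in B6.SLE123, and these spreads overlapped. The control spread was the widest, and its populations with Xist lay above those without. Gzmb was 339, 358 and 324 CPM in C0301, C0302 and C0303 and 593, 812 and 480 CPM in C0304, C0305 and C0306. This was seen after the fact, and the share of all genes split this way is not given here. Between libraries, the Gzmb levels of the Ang II populations, all without Xist, and of the B6.SLE123 populations, all with it, overlapped. These libraries also differ in strain and angiotensin treatment, which cannot be told apart from Xist between them. Thinned shares were 37.3%, 34.9% and 33.0% of NK cells, and unthinned shares were 49.6%, 53.2% and 39.1%.

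Gzmk and Gzmm were scarce. Gzmk had 5, 11 and 14 UMIs over all control, Ang II and B6.SLE123 NK cells, which is 4.13, 9.48 and 11.9 CPM. Gzmm had 23, 30 and 14 UMIs, which is 19.0, 25.9 and 11.9 CPM. In B6.SLE123 NK cells, 10 of the 14 Gzmm UMIs came from C0304, and 3 of the 6 populations had none. At this depth neither gene could be compared between B6.SLE123 and control.

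Prf1 was 725 CPM in control, 644 CPM in Ang II and 609 CPM in B6.SLE123 NK cells. Its hashtag populations ran from 600 to 869, from 615 to 718 and from 450 to 766 CPM, all overlapping. It was found in 50.2%, 45.2% and 44.2% of NK cells after thinning. Unthinned shares were 67.3%, 70.4% and 58.5%.

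Nkg7 was found in nearly every NK cell, in 97.4%, 93.1% and 93.9% after thinning and in 97.8%, 96.6% and 97.3% before. Its level was 4902, 3655 and 3735 CPM. The control populations ran from 4324 to 5495 CPM and the Ang II populations from 3554 to 3817 CPM, without overlap. The B6.SLE123 populations ran from 3117 to 4521 CPM, and the highest of them reached into the control spread.

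Fasl was 99.0, 142 and 84.1 CPM, with populations from 56.4 to 140, from 45.0 to 231 and from 54.7 to 114 CPM. The Ang II library held both the highest and the lowest Fasl population. The thinned share was 8.86% in control (6.60% to 11.6%), 15.1% in Ang II (11.7% to 19.0%) and 9.37% in B6.SLE123 NK cells. Unthinned shares were 17.2%, 31.3% and 14.8%.

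Ifng was 54.5, 62.9 and 28.9 CPM, from 66, 73 and 34 UMIs. Its populations ran from 30.8 to 85.7 CPM in control, from 37.4 to 88.5 CPM in Ang II and from 6.33 to 56.2 CPM in B6.SLE123. The lowest population, B6.SLE123 C0303, rested on 1 UMI. The thinned share was 5.54%, 5.10% and 2.85%, and the unthinned share 10.2%, 14.3% and 5.14%.

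**Figure D2:**
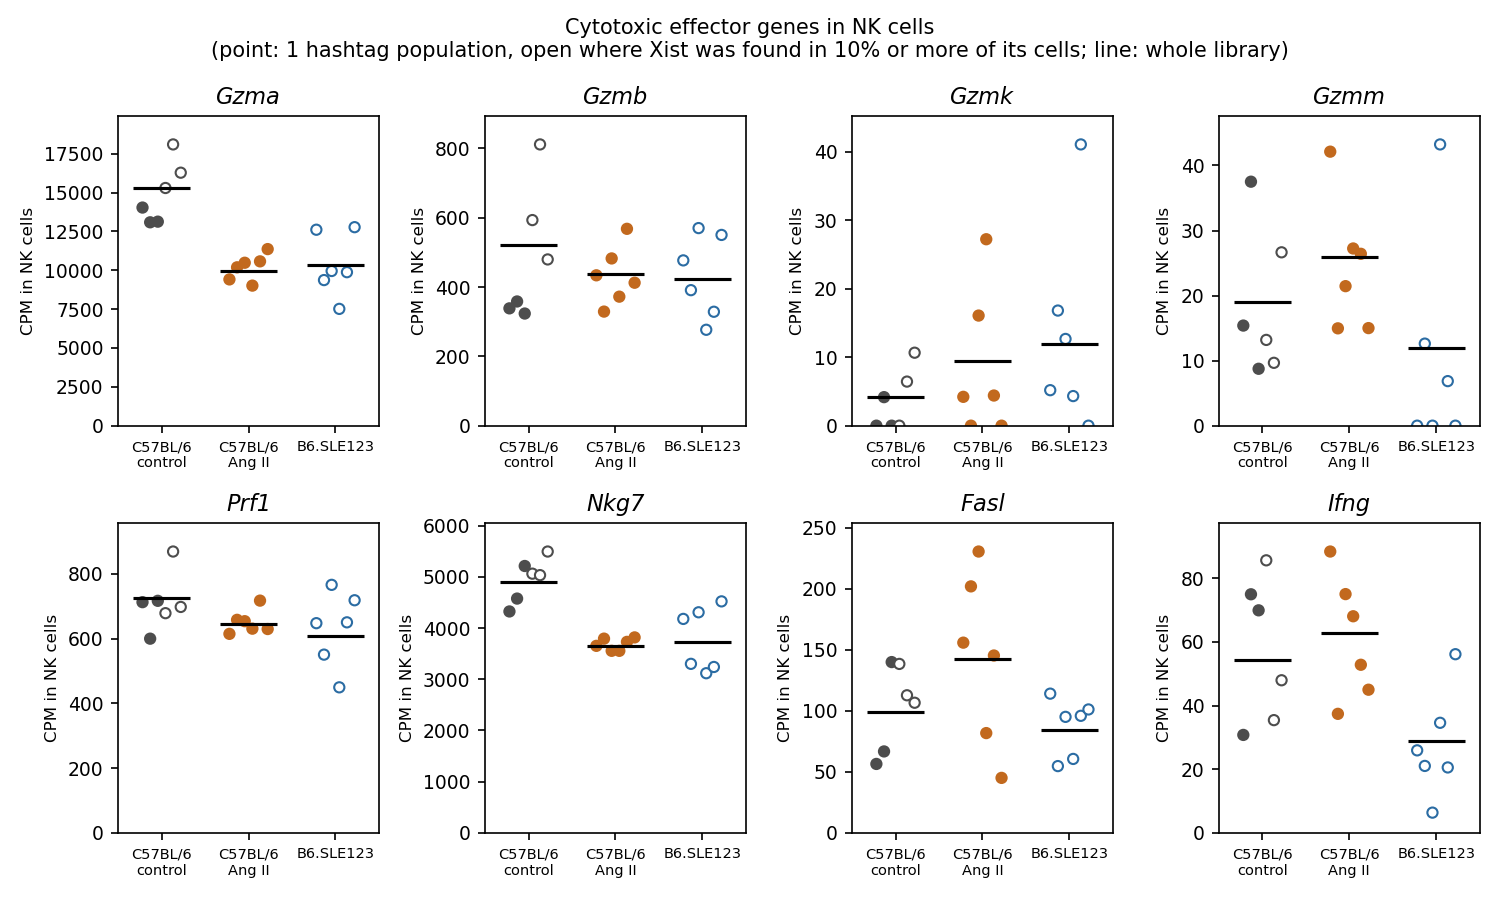
CPM of each gene in NK cells (y axis, from 0) in the 3 libraries (x axis), with 1 point per hashtag population, open where Xist was found in 10% or more of its kept cells, and a line at the level of the whole library. Gzma control points lie at 13084 CPM or above and all others at 12770 CPM or below, and Gzmb in the control library splits into 3 open points at 480 CPM or above and 3 filled points at 358 CPM or below.

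Within NK cells the members went together in part. In control cells thinned to 1000 UMIs, Prf1 was found in 61.4% of cells with Gzmb (54.3% to 68.1%) and in 43.5% of cells without (38.2% to 49.0%). The B6.SLE123 library gave 60.5% and 36.2%, with intervals that did not overlap, and the Ang II library gave 52.6% and 41.2%, with intervals that did. Gzma was found in 99.0%, 99.3% and 99.4% of cells with Gzmb and in 91.2%, 84.7% and 88.1% of cells without. Cells were pooled over hashtag populations here, and the part of differences between populations was not tested. A tie between Ifng and Prf1 was not detectable at this depth, with Prf1 in 56.7% of 30 control cells with Ifng (37.4% to 74.5%) and in 49.8% of those without. The median NK cell of each library held 3 of the 8 genes.

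NK cells of the mouse pass from a stage with Cd27 to one with Itgam (CD11b) as they mature. Control cells with Cd27 and no Itgam UMI (n = 44) had 7824 CPM of Gzma (7350 to 8321), and those with Itgam and no Cd27 UMI (n = 189) had 17969 CPM (17564 to 18380). Ang II cells gave 4055 and 13101 CPM (n = 44 and 162), and B6.SLE123 cells 2738 and 10928 CPM (n = 19 and 170). Prf1 ran the same way, at 432 and 869 CPM in control, 243 and 938 CPM in Ang II and 149 and 685 CPM in B6.SLE123. Gzmb did too, at 162 and 684 CPM, 261 and 561 CPM, and 24.9 and 514 CPM. Nkg7 differed less, at 3835 and 5023 CPM in control.

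Gzmm went the other way in the Ang II library, with 79.0 CPM in cells with Cd27 alone (42.1 to 135) and 11.2 CPM in cells with Itgam alone (3.63 to 26.1). In control cells it was 38.6 and 7.20 CPM with overlapping intervals. Cells with neither UMI were 56.8%, 44.4% and 68.6% of NK cells and had the lowest median depth in each library. In control, cells with Cd27 alone were the deepest, with a median of 2626 UMIs against 1631 in cells with neither. In Ang II and B6.SLE123, cells with both UMIs were the deepest, at 3864 and 2246 UMIs. A split on single UMIs therefore depends on depth.

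**Figure D3:**
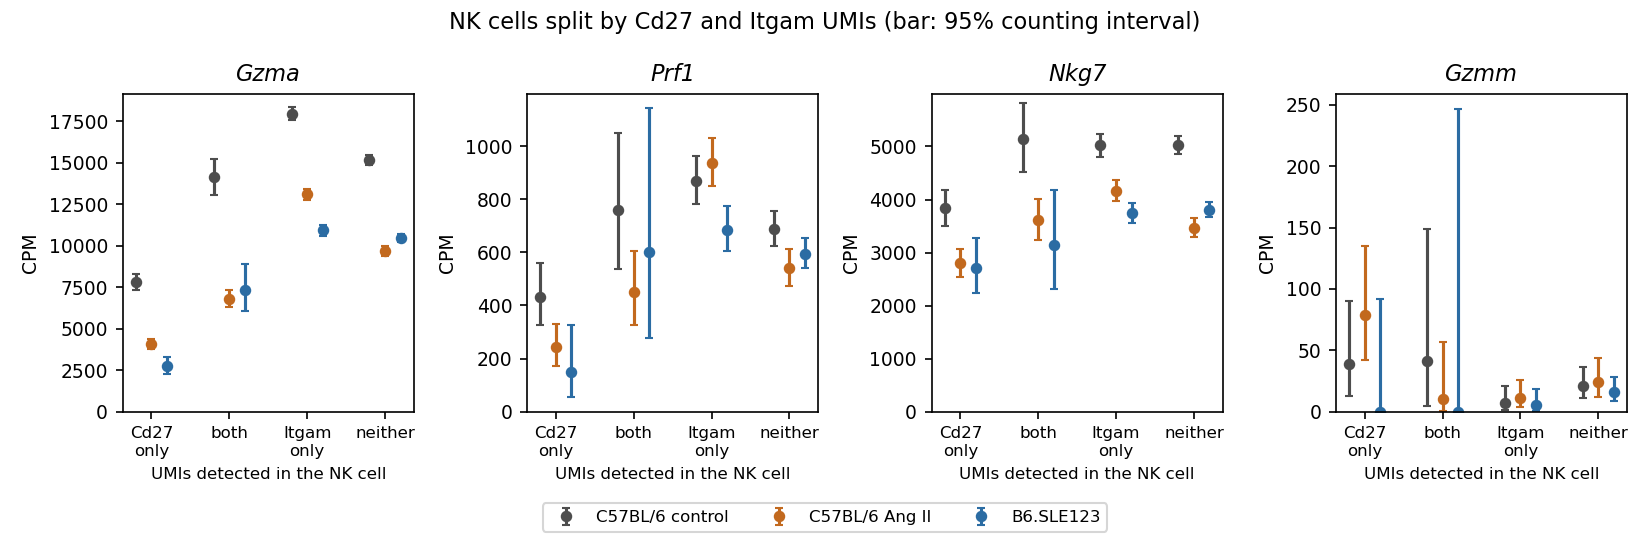
CPM of Gzma, Prf1, Nkg7 and Gzmm (y axes, from 0) in NK cells grouped by whether Cd27, both, Itgam or neither was detected (x axis), with 1 point per library and bars for the 95% counting interval. Gzma and Prf1 are lowest in cells with Cd27 alone in each library, and control Gzma lies above the other libraries in each of the 4 subsets.

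The B6.SLE123 library was compared with the control library to see how the members stood in lupus-prone mice. A gene was called where it had at least 50 UMIs over both libraries, differed by at least 1.5-fold and had an interval off 0, which 4.54% of 5765 genes met as higher and 6.04% as lower. Of the 8 members 6 had enough UMIs, all 6 were lower in B6.SLE123, 1 was called lower and 0 were called higher. The called gene was Ifng, with a log2 ratio of -0.92 (-1.56 to -0.30). Gzma had a log2 ratio of -0.57 (-0.60 to -0.54), which is 1.48-fold lower and just under the limit. Nkg7 was at -0.39 (-0.45 to -0.34), Gzmb at -0.31 (-0.48 to -0.13), Prf1 at -0.25 (-0.40 to -0.11) and Fasl at -0.24 (-0.64 to 0.16). With the mean of each cell's own CPM in place of summed counts, Gzmb turned to 0.02 and Prf1 to 0.01. Without control C0305, the control population with the most Gzmb, Gzmb stood at 0.00. The median of the 6 was -0.35, beside -0.08 over all genes tested. The 10 NK genes outside the gate were lower in sum as well, at 9422 CPM against 12585 CPM, and 8 of the 10 were lower. The part of this in the members' difference was not tested. Hashtag populations of the 2 libraries did not overlap for Gzma alone, and did not overlap for 2.6% of all genes tested. The gap was narrow, from 13084 CPM in the lowest control to 12770 CPM in the highest B6.SLE123 population. It was lost with the cell filter limits read as UMIs, with an NK gate of 3 UMIs, without NK cells holding a B cell UMI and with an NK gate from other genes.

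The control hashtags with Xist gave larger differences from B6.SLE123 for each of the 6 genes but Ifng. With these 285 control NK cells, Gzma was at -0.71 (-0.75 to -0.68), Gzmb at -0.66 (-0.84 to -0.47) and Ifng at -0.81 (-1.55 to -0.08), and all 3 were called lower. Gzma in these control populations was 15291, 18095 and 16276 CPM. Prf1 was at -0.35, Nkg7 at -0.47 and Fasl at -0.48, each with an interval below 0 and under 1.5-fold. Over all 4844 genes tested this way, 5.62% were called lower and 4.71% higher, and populations did not overlap for 6.73%.

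The Ang II library was compared with the same control library, so both comparisons share these control cells. Of 5899 genes 5.98% were called higher and 2.22% lower. Of the 8 members 7 had enough UMIs, 1 was called lower and 0 were called higher. Gzma was the one called, at -0.62 (-0.65 to -0.59), which is 1.54-fold lower. Nkg7 was at -0.42 (-0.48 to -0.37), Gzmb at -0.25 (-0.42 to -0.08) and Prf1 at -0.17 (-0.31 to -0.03). Fasl was higher by 0.52 (0.17 to 0.87), Gzmm was at 0.45 and Ifng at 0.21, the last 2 with intervals across 0. The median of the 7 was -0.17, beside 0.06 over all genes tested. Populations did not overlap for Gzma and Nkg7, and for 2.46% of all genes tested. Without control C0305 Gzma stood at -0.53 and was no longer called, and Gzmb stood at 0.05. Without any one of control C0303, C0304 and C0305 or Ang II C0304 and C0306, Fasl was called higher, at 0.59 to 0.66.

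Here the control hashtags matched in Xist, C0301 to C0303, gave other calls. Gzma was still lower, at -0.43 (-0.47 to -0.39), but this 1.35-fold difference was not called. Its 3 control populations, at 14033, 13084 and 13126 CPM, lay above all 6 Ang II populations, a separation that 7.53% of all genes tested this way showed in one direction or the other. Nkg7 was at -0.34 (-0.41 to -0.27). Gzmb turned to a log2 ratio of 0.35 (0.10 to 0.60), higher in Ang II, and Prf1 was at -0.05 with an interval across 0. Fasl was called higher, at 0.86 (0.37 to 1.38), from 165 UMIs against 43, in a comparison that called 5.30% of 4886 genes higher.

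**Figure D4:**
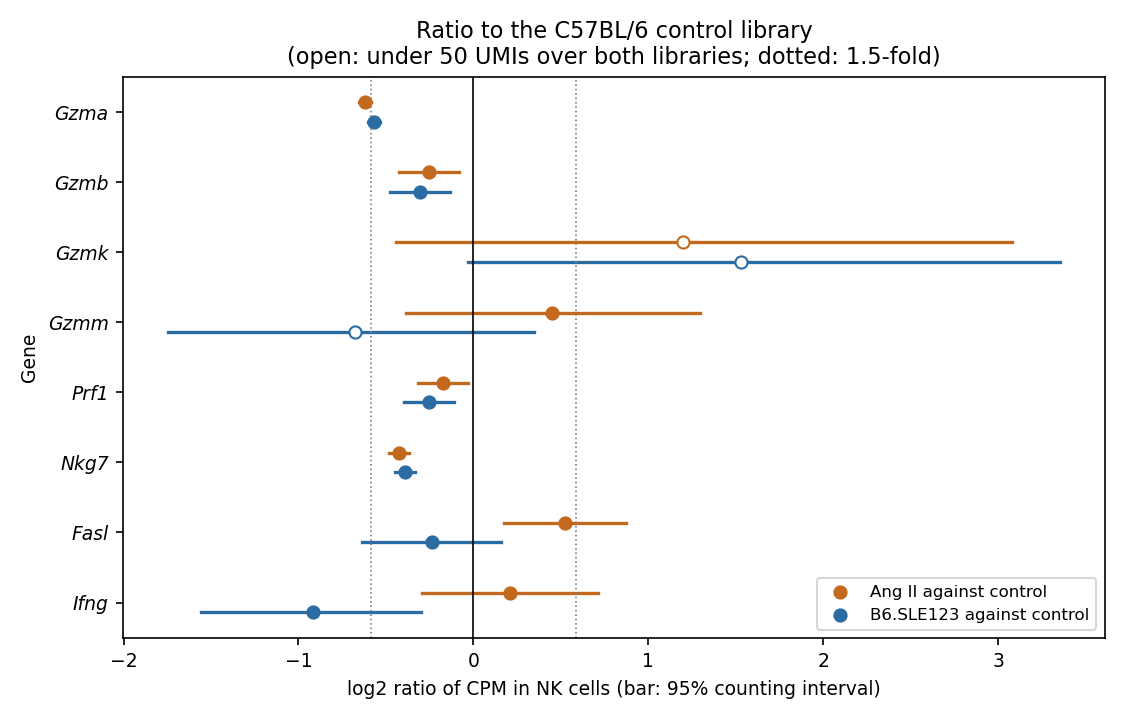
log2 ratio of CPM in NK cells (x axis) for each gene (y axis), Ang II against control in orange and B6.SLE123 against control in blue, with bars for the 95% counting interval, open points for genes under 50 UMIs and dotted lines at 1.5-fold. Gzma, Gzmb, Prf1 and Nkg7 lie below 0 in both, Fasl and Ifng lie on different sides of 0, and Gzma sits at the 1.5-fold line; all 6 control hashtags were used.

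Gzma was lower than in control in cells with Cd27 alone, with Itgam alone and with neither, in both comparisons. For B6.SLE123 the log2 ratios to control were -1.51, -0.72 and -0.54, and for Ang II -0.95, -0.46 and -0.65. Nkg7 was below 0 in the same 3 subsets of both comparisons, from -0.53 to -0.27. Prf1 in Ang II cells with Itgam alone was at 0.11 with an interval across 0, and was at -0.83 and -0.35 in the other 2 subsets.

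In the NK gate, markers of neutrophils and plasma cells were highest in the B6.SLE123 library, and markers of B cells were highest in the control library. Summed over 5 neutrophil genes the level was 40.4, 49.99 and 233 CPM in control, Ang II and B6.SLE123 NK cells. Over hashtag populations this sum ran from 0 to 200, from 7.48 to 160 and from 0 to 709 CPM. The sum over 3 plasma cell genes was 0.825, 0 and 52.6 CPM, and over 4 B cell genes 707, 407 and 670 CPM. A UMI of a B cell gene was found in 16.9%, 18.9% and 20.6% of NK cells. Their part in the lower member levels was not tested beyond leaving out the NK cells with a B cell UMI, after which Gzma stood at -0.37 and Nkg7 at -0.17 in B6.SLE123, Fasl turned to 0.07, and Ifng, at -0.62, was no longer called.

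Other genes of the cytotoxic pathway were read in NK cells from lists by function, and a list is described by its called genes and its median. Over all genes tested, 4.54% were called higher and 6.04% lower in B6.SLE123, and 5.98% and 2.22% in Ang II. The medians over all genes tested were -0.08 and 0.06. The lists are short beside these shares, so their counts are a description only. Granule building and release had 15 of 15 genes tested in B6.SLE123, 2 of them called lower and 0 higher, with a median of 0.10. These were Stxbp2 (-0.69), which helps granules fuse, and Lyst (-0.76), which shapes lysosome-related granules. In Ang II 14 of the 15 were tested and none was called, with a median of 0.08. The other granzymes, Gzmc to Gzmg and Gzmn, had too few UMIs to be tested, and Gzmc had 14 UMIs in Ang II and 2 in control.

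Cytokine receptors, Janus kinases and STATs carry the signals that drive Ifng and the granzymes. In B6.SLE123, 15 of 19 were tested, with 2 called higher, Jak3 (1.17) and Il21r (0.69), and 1 lower, Il18r1 (-0.78), the receptor for interleukin 18. In Ang II, 15 were tested, with 2 called higher, Stat4 (1.08) and Il12rb2 (0.60), both of the interleukin 12 pathway, and 0 lower. Il12rb1, of the same pathway, had too few UMIs to be tested. The list medians were -0.11 and 0.12.

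Transcription factors had 15 of 17 genes tested in each comparison, with none called in B6.SLE123 and 2 called higher in Ang II, Tcf7 (1.198) and Tox (1.12). Their medians were -0.18 and 0.13. The list of chemokines and cytokines, which also held the receptor Cd160, had 5 of 7 tested. None was called in B6.SLE123, and only Cd160 (0.64) was called higher in Ang II. The medians of this list were -0.21 and 0.16. Death ligands and the TNF family had 1 of 6 tested and none called in B6.SLE123, and 2 tested in Ang II with Tnfsf14 (0.85) called higher. The only value in B6.SLE123 was -0.29 and the median of the 2 in Ang II was 0.72.

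NK maturation genes had 11 of 13 tested in each comparison. In B6.SLE123, Cd27 (-1.29) and Itga2 (-0.64) were called lower and 0 higher. In Ang II, Il7r (1.81), Kit (1.69) and Cd27 (0.64) were called higher and Cx3cr1 (-1.89) and Klrg1 (-0.96) lower. Cx3cr1, Klrg1 and S1pr5 are known from late NK cells, and Kit and Cd27 from early ones. S1pr5 was at 0.37 (0.14 to 0.59) and Itgam at 0.04 in Ang II, so the late genes did not all lie on one side. The list medians were -0.23 in B6.SLE123 and 0.04 in Ang II. The part of this difference in the members' levels was not tested beyond the subsets given above.

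T cells that remained after depletion could be described in the Ang II library only, since the control and B6.SLE123 libraries held 19 and 18. Of the 331, 290 carried hashtag C0303, where they were 12.9% of kept cells, against 0.190% to 0.390% in the other 5 populations. Their Nkg7 was 472 CPM (438 to 509), Gzma 45.2 CPM, Prf1 33.5 CPM, Gzmm 14.4 CPM and Gzmk 13.7 CPM. Fasl, Gzmb and Ifng had 11, 7 and 5 UMIs in all T cells.

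The T cell Gzma rested on few cells. Only 12 T cells had a Gzma UMI, 1 of them held 35 of the 66 UMIs, and the 14 T cells that also had at least 2 UMIs of the NK gate genes held 43. Without C0303 the Gzma level was 213 CPM, from 23 UMIs in 41 cells. Nkg7 without C0303 was 463 CPM, close to its level with it.

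T cells with a Cd8a or Cd8b1 UMI and no Cd4 UMI (n = 147) had 733 CPM of Nkg7 (672 to 799), and T cells with Cd4 alone (n = 78) had 88.3 CPM (59.6 to 126). Prf1 was 49.0 CPM (34.1 to 68.1) in the first and 8.83 CPM (1.82 to 25.8) in the second. Gzmk was 16.8 and 23.6 CPM, with overlapping intervals. Gzmb had 1 UMI in each. Of the 147 and 78 cells, 136 and 77 carried C0303, so the contrast is largely one within that hashtag population. There Nkg7 was 738 and 89.4 CPM.

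Plasma cells, the antibody-secreting cells, held Gzma in the B6.SLE123 library. It was singled out with its values known. Their gate, at least 3 UMIs of Sdc1, Tnfrsf17 and Derl3, found 20 control, 35 Ang II and 216 B6.SLE123 cells. It left out cells with a Cd3e UMI or with at least 2 UMIs of the NK gate genes. Gzma had 143 UMIs in the B6.SLE123 plasma cells, which is 58.3 CPM, against 4.60 CPM in B cells of that library. It was found in 59 of the 216 cells, which is 27.3% (21.5% to 33.8%), and 9 cells had at least 5 UMIs. No Gzma UMI was found in the control or Ang II plasma cells, which allows a share of up to 15% and 8.57% by the limit of 3 counts, with exact upper bounds of 16.8% and 10.0%.

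All 6 B6.SLE123 hashtag populations held Gzma in plasma cells. The share of cells ran from 14.3% in C0301 (n = 21) to 36.1% in C0303 (n = 61), and C0303 held 82 of the 143 UMIs. Plasma cells are deep, with a median of 10811 UMIs against 1938 in B cells, and cells with and without Gzma had medians of 11329 and 10676 UMIs.

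The other members did not accompany Gzma there. The 59 cells had 1 Nkg7 UMI, 2 of Prf1 and 0 of Gzmb, and for every 100 Gzma UMIs they had 0.699 of Nkg7, where NK cells of the library had 36.2. Of NK genes, Klrd1, which no gate used, had 0 UMIs. Ncr1, an NK gate gene held to at most 1 UMI per cell by the plasma cell gate, had 1. Tyrobp, which myeloid cells also express, had 25 in 4 of the cells. That is 17.5 Tyrobp UMIs per 100 of Gzma, against 35.0 in NK cells. Tyrobp was no higher in plasma cells with Gzma, at 35.8 CPM (23.2 to 52.9), than in the 157 without, at 56.3 CPM (45.8 to 68.6). Jchain, which joins antibody subunits, was at 36073 CPM in these cells.

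**Figure D5:**
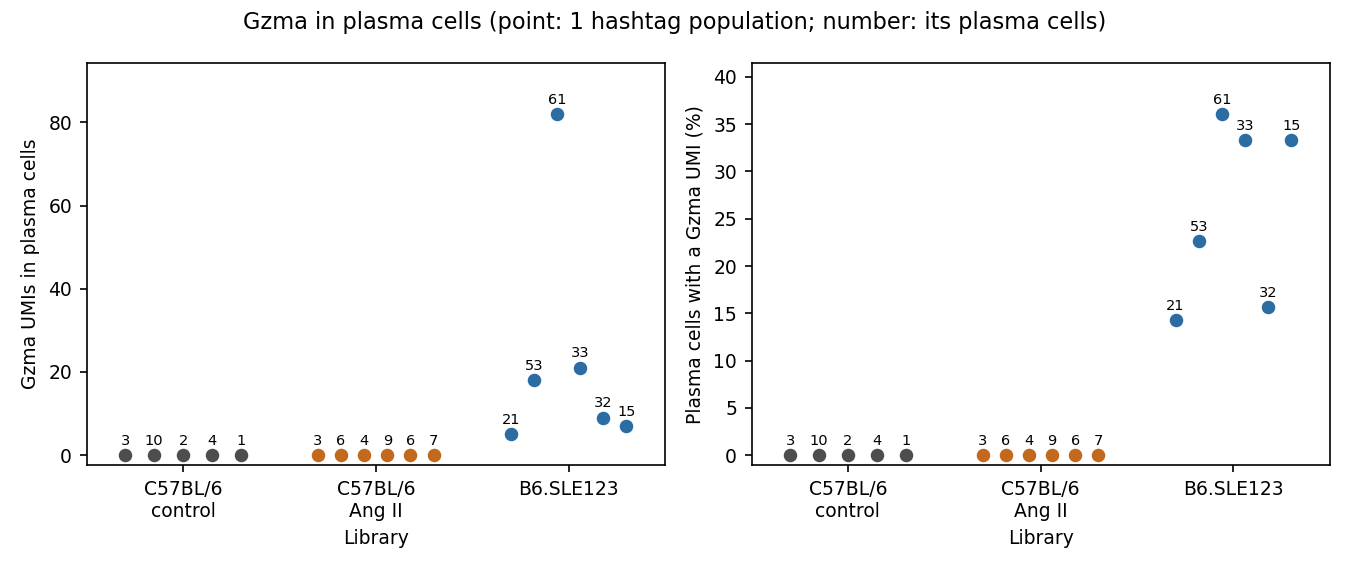
Gzma UMIs in plasma cells (left y axis) and the percent of plasma cells with a Gzma UMI (right y axis) by library (x axes), with 1 point per hashtag population and its number of plasma cells above it. Gzma UMIs were found in 59 of 216 B6.SLE123 plasma cells and in 0 of 20 control and 0 of 35 Ang II plasma cells.

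The basophil and mast cell gate, at least 3 UMIs summed over Mcpt8, Cpa3, Ms4a2 and Cd200r3, found 21, 17 and 22 cells. Gzmb was also found in a few of them. They too were singled out with their values known. In the control library 2 cells of C0302 held 61 and 30 Gzmb UMIs, in B6.SLE123 2 cells of C0303 held 35 and 31, and in Ang II 1 cell of C0305 held 3. All 5 had Kit, which the gate did not use, and Ms4a2, a chain of the IgE receptor, which it did. Cpa3, another gate gene, had 0 UMIs in the Ang II cell. All 5 had 0 UMIs of Gzma and Prf1. Nkg7 was present in each, at 1 to 7 UMIs.

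Genes with levels most like those of each member were sought over 24 points, each a cell class of at least 20 cells in 1 library. The search covered 7025 genes with at least 50 UMIs in NK cells over all libraries. For a member found mostly in NK cells, a high r is therefore partly set by this choice of genes. The points share libraries and differ in depth and cell number, so the Pearson r of log2(CPM + 1) is a description only. Closest to Gzma were Klrg1 (0.944), Klra1 (0.939) and Car5b (0.938), to Gzmb Spry2 (0.977), F2r (0.9749) and Tshz3 (0.970), and to Prf1 Gm14029 (0.974), Klra1 (0.965) and Cd160 (0.964). Nkg7 was close to Eya2 (0.939) and F2r (0.928). Closest to Fasl were Klrc1 (0.995), Gm33782 (0.985) and Gm43647 (0.984). Ifng was closest to Gm33782 (0.999), Gm43647 (0.996) and Kcnj8 (0.991), Gzmk to Cd96 (0.987), Trbc1 (0.979) and Gm2682 (0.976), and Gzmm to Sytl2 (0.972), Cpne7 (0.943) and Apol7e (0.939).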

How the data were processed

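The authors deposited filtered count tables, 1 per library, of UMI counts per gene and hashtag for each cell barcode. Per the file headers they came from Cell Ranger 6.0.0, and per the submitters' processing notes reads were aligned to mm10. The members, gene lists and gates were chosen with earlier results of these data known.

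Cells with more than 200 and fewer than 3500 genes and under 15% mitochondrial UMIs were kept. Hashtags were called with Otsu thresholds (scikit-image 0.26.0), and barcodes with several hashtags were removed as doublets. No other doublet caller was run. B cells had at least 3 UMIs summed over B cell marker genes such as Cd79a and Ms4a1, and no UMI of the NK gate genes or Cd3e. The gene UMIs summed to 44146350, 59043555 and 63516694 in the C57BL/6 control, the Ang II and the B6.SLE123 library.

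Counts were summed per class and library and given as CPM with exact Poisson intervals, shares with Clopper-Pearson intervals, and log2 ratios with exact conditional intervals, all at 95% (Python 3.11.15, scipy 1.17.1). No test across samples was possible with 1 library per group. All 8 members were named whatever their values, with at most the 3 highest and 3 lowest called genes of each list and the 3 genes most alike to each member, of which some are not reported here. Alternatives changed scaling (TMM of edgeR 4.0.16 under R 4.3.3), filters, doublets, gates, background, the count minimum, the fold and single hashtags. An NK gate from other genes and matching on Xist were added after seeing the data. The calculation was tested on simulated data. Gene positions are from GENCODE vM21, which held 32235 of the genes.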

Additional observations from a re-analysis of the deposited data

Results flagged for a closer look

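Gzmm in B6.SLE123 NK cells of hashtag C0304 was 43.2 CPM, far above the other 5 populations of that library, of which the next was 12.6 CPM and the lowest 0. It rested on 10 UMIs. It was the only one of 24 groups of hashtag populations with such a gap, and chance gives about 1 in 20.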

How the results depend on the processing

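No paired analysis was possible because the labels give no replicate numbers that the libraries share. In B6.SLE123 against control, the median log2 ratio of the members (-0.35) became -0.14 with the mean of per-cell CPM, -0.14 with the filter limits read as UMIs, -0.54 without doublet removal, -0.12 without NK cells holding a B cell UMI and -0.57 with control hashtags matched on Xist, and ran from -0.42 to -0.26 with 1 hashtag left out. The count called lower (1) became 2 with no cell filter, without doublet removal, with an NK gate of 3 UMIs and with the NK gate from other genes, 3 matched on Xist, and 0 without NK cells holding a B cell UMI or with a fold of 2, and ran from 1 to 2 with 1 hashtag left out. The count of members whose populations did not overlap (1) became 0 with the limits read as UMIs, the gate of 3 UMIs, no B cell UMI or the other NK gate, 2 matched on Xist, where 6.73% of all genes tested did not overlap, and ran from 1 to 2 with 1 hashtag left out.

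In Ang II against control, the median (-0.17) changed sign to 0.070 with the limits read as UMIs, 0.018 with no count minimum, 0.033 matched on Xist and 0.044 without control C0305, became -0.34 with the NK gate from other genes, and ran from -0.30 to 0.044 with 1 hashtag left out. The count called higher (0) became 1 with the limits read as UMIs and matched on Xist, and ran from 0 to 1 with 1 hashtag left out. The count called lower (1) became 0 with the limits read as UMIs, a fold of 2 and matched on Xist, and ran from 0 to 1 with 1 hashtag left out. The count without overlap (2) became 1 with the limits read as UMIs. The cause was not tested. Gzma and Nkg7 kept their sign in 25 of 25 settings in both comparisons, and Gzmb in 22 of 25. Ratios for T cells were not run, since the control and B6.SLE123 libraries held under 20. Depth limits Gzmk, Gzmm and Ifng most.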
